A study of Homo sapiens with 6 samples.

Results

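The genes described are 9 components and regulators of the complement system, C3, C7, C1R, C1S, CFI, SERPING1, CD46, CD55 and CD59, out of 57342 gene names counted in the series. They were chosen by name, and the set was picked because C3 and C7 differed strongly between the groups compared here. The values of the members in this contrast are therefore given as a description, with no p-value, and where a count of members past the threshold is printed it restates that choice. The series compared H295R, a human adrenocortical carcinoma cell line, with a subpopulation of the same line (H295R-PM-Ptc+) that had been sorted for surface display of Ptch1, the Hedgehog receptor, and expanded in culture. RNA of 3 libraries labelled WT (parental cells) and 3 labelled PTC (the subpopulation) was sequenced. Both groups were grown in the same serum-supplemented medium without any treatment. All libraries come from a single cell line and a single enriched population, and the labels do not say whether the replicates were separate cultures, so that p-values measure only the spread between these libraries.

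Complement is a cascade of plasma proteins that tags and perforates cells. The proteases C1r and C1s act within the C1 complex at the start of the classical pathway, all pathways meet at the cleavage of C3, and C7 is one of the late components that assemble into the membrane attack complex. Soluble regulators such as the C1 inhibitor (SERPING1) and factor I (CFI) and membrane regulators such as CD46, CD55 and CD59 keep the cascade off the body's own cells. Most circulating complement is made by the liver, and many other cells also transcribe complement genes.

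Library totals ran from 23264403 to 25813247 counts. PTCH1, the receptor used for the sort, had 441, 559 and 579 counts in the libraries labelled WT and 248, 326 and 319 in those labelled PTC. It was thus lower in the libraries labelled PTC by -0.81 ± 0.147 (log2 fold change ± standard error, edgeR adjusted p = 0.0207), opposite to the label. The adjusted p was 0.0799, 0.0921 and 0.0618 without replicates 2 or 3 of the libraries labelled WT or replicate 2 of those labelled PTC. It was 0.00638 to 0.0434 without any 1 of the other libraries. With the replicate number as a block in edgeR it was 1.72e-06, and with DESeq2 7.09e-05. The log2 ratio was -0.93, -0.75 and -0.77 within same-numbered replicates. The group names of the deposited columns were also exchanged with respect to the study's own supplementary expression values. Both the PTCH1 counts and that exchange run opposite to the deposited names. The deposited counts alone do not settle which naming is right, so every direction below refers to the libraries as they are labelled. The adrenocortical identity was present in all 6 libraries: NR5A1, the steroidogenic factor of the adrenal cortex, had 8273 to 9729 counts, although CYP11B1 had at most 3 counts in any library.

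Promoter sequence was available for 6 of the 9 genes, in 11 windows of 300 bases (250 before to 50 after a RefSeq start, GRCh38.p14). The windows of the genes with the clearest differences, and of CFI and C1R for contrast between secreted members, are printed 5′ to 3′ on the gene's strand. Capitals mark every match, on either strand, to 9 short motifs: an SF-1 site (CAAGGTCA), a TATA box (TATAAA), a GC box (GGGCGG), a box named by its letters CCAAT, an AP-1 site (TGA and TCA with any base between them), a STAT site (TTCNNNGAA), an interferon-response core (GAAANNGAA), a GLI site (GACCACCCA) and a C/EBP site (TTNNGCAA). None of the capital stretches below overlap.
C7, chr5:40909247-40909546, plus strand: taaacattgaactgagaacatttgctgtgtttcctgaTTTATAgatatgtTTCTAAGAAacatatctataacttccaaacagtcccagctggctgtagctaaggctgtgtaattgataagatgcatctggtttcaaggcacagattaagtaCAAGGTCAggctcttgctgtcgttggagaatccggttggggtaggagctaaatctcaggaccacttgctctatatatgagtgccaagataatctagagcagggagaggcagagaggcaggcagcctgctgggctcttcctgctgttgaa
CFI, chr4:109801950-109802249, minus strand: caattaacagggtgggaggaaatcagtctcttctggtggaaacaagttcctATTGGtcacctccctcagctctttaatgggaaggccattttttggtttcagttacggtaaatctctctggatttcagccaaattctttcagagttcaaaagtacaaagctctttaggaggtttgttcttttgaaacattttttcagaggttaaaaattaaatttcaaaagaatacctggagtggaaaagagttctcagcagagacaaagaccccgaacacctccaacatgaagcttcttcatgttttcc
C1R, chr12:7092396-7092695, minus strand: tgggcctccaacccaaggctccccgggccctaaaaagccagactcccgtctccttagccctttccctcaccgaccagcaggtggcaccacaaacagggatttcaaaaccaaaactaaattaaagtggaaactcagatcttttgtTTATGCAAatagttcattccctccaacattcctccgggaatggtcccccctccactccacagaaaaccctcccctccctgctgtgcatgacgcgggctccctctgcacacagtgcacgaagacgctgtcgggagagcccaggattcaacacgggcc
CD55, chr1:207321428-207321727, plus strand: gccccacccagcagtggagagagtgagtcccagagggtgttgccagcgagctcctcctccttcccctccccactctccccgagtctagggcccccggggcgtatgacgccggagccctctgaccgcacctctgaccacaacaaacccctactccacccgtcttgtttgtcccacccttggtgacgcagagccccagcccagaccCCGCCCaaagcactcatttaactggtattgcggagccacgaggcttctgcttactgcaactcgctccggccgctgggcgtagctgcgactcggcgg

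The C7 window held an SF-1 site beginning 99 bases before the start, a STAT site 200 bases before it and a TATA box on the opposite strand 213 bases before it. Of 35116 windows in the RefSeq set, 1.28% held the SF-1 letters, 7.66% the STAT letters and 11.5% the TATA letters. The start that the counting annotation gives for C7 (40909252) lies inside this window, upstream of the RefSeq start. The same holds, on the gene's strand, for CFI, C1R and CD55 and their printed windows. CFI held a CCAAT box on the opposite strand (34.6% of windows), C1R a C/EBP site (10.5%) and CD55 a GC box on the opposite strand (45.0%). The GLI letters, which stand for the transcription factors at the end of the Hedgehog pathway, were in 0.236% of all windows and in none of the 11 member windows, nor was the interferon-response core (8.11% of windows). The STAT letters were in 4 of the 11, among them windows of C1R and CD59. Overlapping windows of CD59 held the same STAT site, so the 11 windows are not separate and their count is not comparable with the share of all windows. The AP-1 letters were in 1 of the 11, a window of CD59, and in 7.71% of all windows. GC content was 44.3% in the C7 window and 39.3% in that of CFI, against 65.0% in CD55 and a median of 58.7% over all windows. These are matches of letters only.

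C7 showed the widest difference of the 9 genes. This terminal component (chromosome 5, 40909252 to 40982939, plus strand) had 22, 19 and 12 counts in replicates 1, 2 and 3 labelled WT and 307, 207 and 196 in those labelled PTC. Every library labelled PTC was far above every library labelled WT, and the highest was replicate 1. In per-million counts (CPM) of library sizes scaled by TMM, a correction for differences in composition between libraries, the mean was 0.718 ± 0.219 against 9.60 ± 2.09 (SD, n = 3 in each group). The fitted log2 fold change was 3.74 ± 0.249, or 13.3-fold. Within same-numbered replicates the log2 ratio lay between 3.48 and 4.13. In a bulk library such a difference cannot tell more cells expressing a gene from more RNA per cell.

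C3, the protein whose cleavage all pathways share (chromosome 19, 6677704 to 6730562, minus strand), was close to the limit of detection. It had 3, 3 and 0 counts in the libraries labelled WT and 21, 11 and 13 in those labelled PTC. The groups did not overlap, and C3 passed the filter on low counts only through the libraries in which it was higher. Its mean was 0.0812 ± 0.0704 CPM against 0.609 ± 0.194 CPM (SD, n = 3). Summed over libraries, 6 counts stood against 45, a depth-corrected ratio of 7.55 with a 95% exact interval of 3.21 to 21.6 that covers counting error only. The fitted log2 fold change was 2.84 ± 0.595. Of the libraries labelled PTC, replicate 1 was again the highest.

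**Figure D1:**
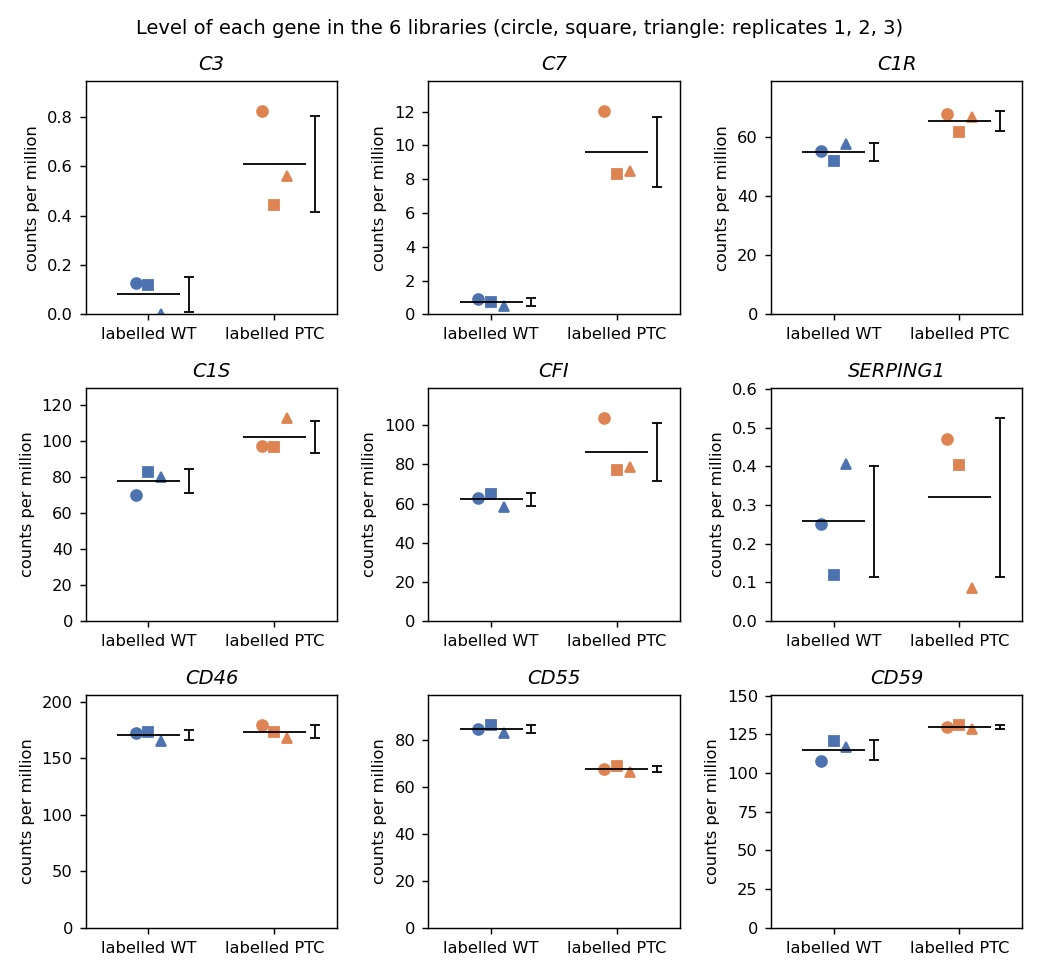
CPM (vertical axes, each from 0) of the 9 complement genes in the 3 libraries labelled WT (blue) and the 3 labelled PTC (orange), with the marker shape giving the replicate number, lines the mean and bars the SD. C3 and C7 are the only panels in which the lowest library labelled PTC lies at several times the highest labelled WT, CD55 is lower in the libraries labelled PTC, and SERPING1 and CD46 overlap.

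The proteases of C1 were well transcribed in every library. C1R (chromosome 12, 7080209 to 7092607, minus strand) had 1323, 1317 and 1429 counts in the libraries labelled WT and 1735, 1536 and 1549 in those labelled PTC. Its means were 55.0 ± 3.00 and 65.5 ± 3.28 CPM (SD, n = 3), a log2 fold change of 0.25 ± 0.0769 without overlap between groups. Part of this gene, 672 of its 4849 exon bases, is shared with C1RL on the same strand, and reads there cannot be assigned to either. C1S lies beside it on the opposite strand (6988259 to 7071032), so that the genes run towards each other. It had 1681, 2105 and 1981 counts in the libraries labelled WT and 2496, 2406 and 2611 in those labelled PTC. The means were 77.8 ± 6.58 and 102.4 ± 9.01 CPM, and the log2 fold change was 0.40 ± 0.0945, again without overlap. C1S shares 229 of its 6462 exon bases with RP3-461F17.3 on the same strand. Both proteases were higher in the library labelled PTC in 3 of 3 same-numbered pairs, with log2 ratios of 0.21 to 0.29 for C1R and 0.22 to 0.49 for C1S.

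Of the soluble regulators, CFI was well transcribed and SERPING1 hardly at all. CFI, the serine protease that inactivates C3b and C4b (chromosome 4, 109740694 to 109802179, minus strand), had 1504, 1653 and 1444 counts in the libraries labelled WT and 2649, 1924 and 1823 in those labelled PTC. Its means were 62.2 ± 3.40 and 86.6 ± 14.8 CPM (SD, n = 3), with a log2 fold change of 0.48 ± 0.118. The groups did not overlap, but replicate 1 labelled PTC, at 103.6 CPM, stood well above replicates 2 and 3 at 77.4 and 78.8 CPM, and without it the log2 fold change was 0.32. SERPING1, the inhibitor of C1r and C1s (chromosome 11, 57597387 to 57614853, plus strand), had 6, 3 and 10 counts in the libraries labelled WT and 12, 10 and 2 in those labelled PTC. The groups overlapped fully, and the gene had too few counts to be tested. Its summed counts, 19 against 24, gave a ratio of 1.27 with a 95% exact counting interval of 0.667 to 2.45, and a difference was not detectable at this depth.

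Among the membrane regulators CD55 was lower in the libraries labelled PTC, CD46 overlapped between the groups and CD59 was slightly higher. CD55, which speeds the decay of the C3 convertases, was the only member that was lower in the libraries labelled PTC. This gene (chromosome 1, 207321508 to 207360966, plus strand) had 2028, 2199 and 2061 counts in the libraries labelled WT and 1733, 1718 and 1537 in those labelled PTC. The means were 84.9 ± 1.60 and 67.8 ± 1.35 CPM (SD, n = 3), a log2 fold change of -0.33 ± 0.0672. Its replicates lay close together in both groups, and the log2 ratio was between -0.33 and -0.32 in all 3 same-numbered pairs.

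CD46, a cofactor for factor I on the cell surface (chromosome 1, 207752057 to 207795513, plus strand), had 4125, 4402 and 4086 counts in the libraries labelled WT and 4580, 4296 and 3883 in those labelled PTC. The libraries of both groups overlapped, with means of 170.4 ± 4.45 and 173.2 ± 5.73 CPM and a log2 fold change of 0.02 ± 0.0701. CD59, the surface protein that blocks the last step of membrane attack (chromosome 11, 33698261 to 33736445, minus strand), had 2578, 3062 and 2887 counts in the libraries labelled WT and 3321, 3255 and 2975 in those labelled PTC. The groups did not overlap in CPM, at 115.1 ± 6.50 and 129.8 ± 1.21 (SD, n = 3), and the log2 fold change was 0.17 ± 0.0731. CD59 shares 254 of its 4942 exon bases with C11orf91 on the same strand.

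**Figure D2:**
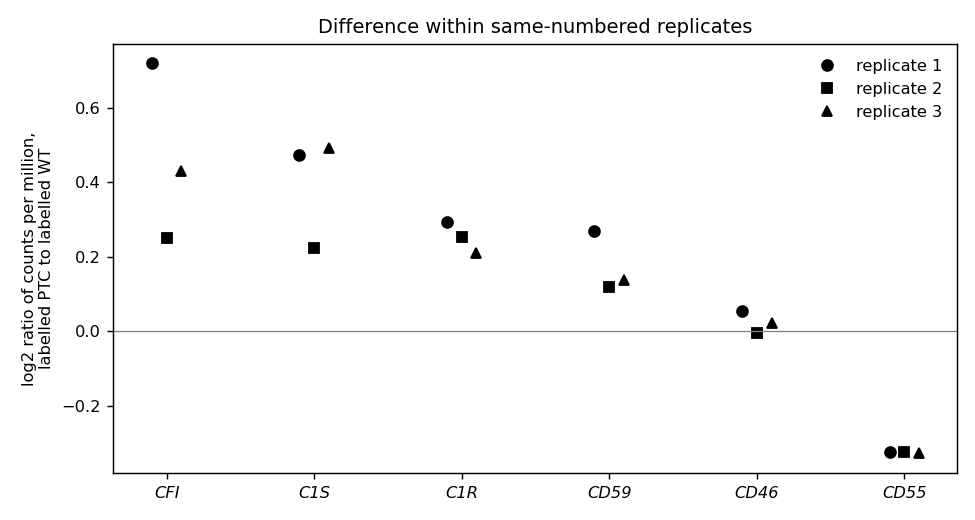
Log2 ratio of CPM, library labelled PTC to the library labelled WT with the same replicate number (vertical axis), for the 6 complement genes with over 1000 counts in every library, with 1 symbol per replicate number. CFI spreads from 0.25 to 0.72 with replicate 1 at the top, the 3 ratios of CD55 fall together near -0.33, and those of CD46 straddle 0.

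In the fit over all genes (edgeR quasi-likelihood test, Benjamini-Hochberg adjusted p under 0.05), 3 of the 8 members that entered the fit were past the threshold, C3 and C7, on which the set was picked, and CD55, the first 2 higher and the last lower in the libraries labelled PTC. Over all 16710 genes tested, 3.73% were called, 2.42% as higher and 1.32% as lower. The groups did not overlap for 7 of the 8, against 23.5% of all genes tested. With the replicate number as a block, 7 of the 8 members were called, all but CD46, against 22.5% of all genes. Without any 1 library other than replicate 1 labelled WT, C3 and CD55 were no longer past the threshold in the fit without the block. The median log2 fold change was 0.32 over the 8 members, of which 7 were higher in the libraries labelled PTC, and 0.00094 over all genes, of which 8382 of 16710 were higher. Nothing is read from these counts and medians, since the members were picked on this contrast.

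Markers of macrophages, hepatocytes and endothelial cells were low or absent, and some of those of fibroblasts were not. Of 8 fibroblast markers, 3 were tested (COL1A1, COL3A1 and FAP) and COL3A1, a fibrillar collagen, was called, with 573 to 577 counts in the libraries labelled WT and 1760, 1585 and 1545 in those labelled PTC (log2 fold change 1.51, edgeR adjusted p = 0.000131). FAP, a surface protease, had means of 37.4 and 47.0 CPM without overlap (log2 fold change 0.33, edgeR adjusted p = 0.0755, and 0.000433 with the replicate block). The summed level of that list was 66.6 to 73.3 CPM against 119 to 129 CPM, most of which difference was COL3A1, and LUM was at 0 in all libraries. COL1A1 overlapped between groups (log2 fold change 0.21, edgeR adjusted p = 0.455), and PDGFRA, not tested, had 12, 12 and 7 counts against 4, 6 and 7. The summed level of 5 endothelial markers was 0.197 to 0.335 CPM against 0.509 to 0.648 CPM, with none tested. Of these, TEK had 2, 4 and 2 counts against 6, 11 and 11 and CDH5 was also higher on average. The means of PECAM1, VWF and KDR were lower in the libraries labelled PTC. The 6 macrophage markers counted summed to 0.647 to 1.18 CPM against 1.14 to 1.45 CPM, with PTPRC and AIF1 at 0, and the 7 hepatocyte markers to 3.43 to 6.26 CPM against 2.27 to 5.36 CPM, with FGB and TTR at 0. Most of the hepatocyte sum was APOB, and ALB, not tested, had 1, 1 and 2 counts against 7, 4 and 11. None of these 3 lists held a called gene, with or without the replicate block. Of 9 adrenocortical markers 8 were tested and 1, CYP21A2, was called, as higher in the libraries labelled PTC, and the list summed to 879.7 to 1160 CPM against 957.8 to 1216 CPM. With the replicate block STAR, which carries cholesterol into mitochondria, was also called as higher (log2 fold change 0.41 without the block, edgeR adjusted p with it 3.91e-06), and CYP11A1, the first enzyme of steroid synthesis, as lower (-0.25, 0.00100). The part of the fibroblast and endothelial markers in the complement differences was not tested.

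Levels were compared between genes only per length, as CPM per kilobase of gene, in fragments (FPKM). In the libraries labelled WT, 6 members lay between 11.3 and 23.3 FPKM and 3 lay far below. CD59 was the highest at 23.3 ± 1.32 FPKM (SD, n = 3), above 86.5% of the genes tested. CD55 at 20.9 ± 0.395, CD46 at 19.6 ± 0.511, CFI at 16.0 ± 0.878, C1S at 12.0 ± 1.02 and C1R at 11.3 ± 0.618 FPKM followed in that order. Only C1S and C1R overlapped among these neighbors. C7 was at 0.138 ± 0.0420 FPKM, SERPING1 at 0.0716 ± 0.0398 and C3 at 0.00975 ± 0.00846, and the first 2 of these overlapped. The regulators on the cell surface therefore led the order, and the median of all genes tested was 4.23 FPKM.

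In the libraries labelled PTC, CFI and CD55 exchanged places in this order. CD59 was again first, at 26.3 ± 0.245 FPKM (SD, n = 3), but CFI came second at 22.4 ± 3.81 FPKM and overlapped both CD59 and CD46 (19.9 ± 0.658). CD55 followed at 16.7 ± 0.334 FPKM and overlapped C1S at 15.9 ± 1.39. C1R came next at 13.5 ± 0.676, and then C7 at 1.84 ± 0.400, SERPING1 at 0.0886 ± 0.0568 and C3 at 0.0731 ± 0.0233 FPKM, the last 2 overlapping. Even in these libraries C7 was above only 33.7% of the genes tested and C3 above only 0.934%. The 6 members above 10 FPKM in every library differed by at most 0.48 between the groups on the log2 scale.

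**Figure D3:**
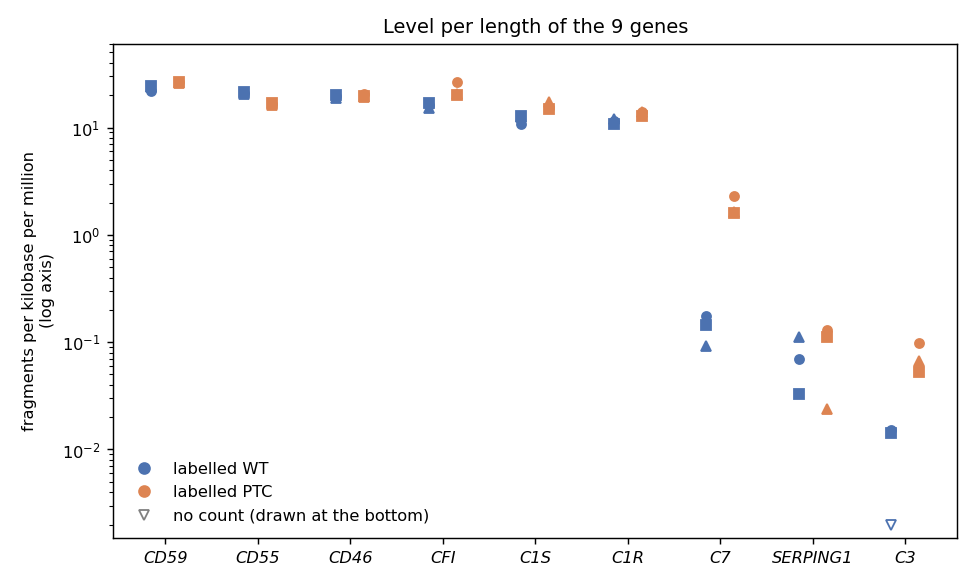
FPKM (vertical axis, log scale) of the 9 complement genes in each library labelled WT (blue) and PTC (orange), in the order of the mean in the libraries labelled WT. The surface regulators, CFI and the C1 proteases lie between 10 and 30, while C7, SERPING1 and C3 lie below 3 in every library, and the open triangle is the library without a count of C3.

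Ratios between members, taken per length within a library, do not depend on the scaling of the library. The ratio of C1S to C1R was 1.06 ± 0.125 in the libraries labelled WT and 1.17 ± 0.0927 in those labelled PTC (SD, n = 3), and the groups overlapped. The ratio of CD46 to CD55 was 0.947, 0.932 and 0.923 in the first and 1.23, 1.17 and 1.18 in the second. CD55 exceeded CD46 in every library labelled WT, and CD46 exceeded CD55 in every library labelled PTC. CD59 to CD55 moved alike, from 1.11 ± 0.0595 to 1.57 ± 0.0168. C7 to CFI was 0.00852 ± 0.00234 against 0.0819 ± 0.00357, without overlap.

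Of 47 further complement genes, 16 passed the filter and 2 were called, both as higher in the libraries labelled PTC, against 3.73% of all genes tested. Of the 16, 10 were higher and 6 lower, the median log2 fold change was 0.14, and 4 did not overlap between groups, against 23.5% of all genes tested. The other 31 were not tested, and 22 of the 47 had at most 3 counts in every library. C2, the protease of the classical C3 convertase, had 7, 12 and 7 counts in the libraries labelled WT and 46, 31 and 28 in those labelled PTC. C2, like C8G among the 16, passed the minimum on counts only through the libraries labelled PTC, in which it is higher, so the counts of calls and of genes without overlap are not read as support. Its log2 fold change was 2.00 ± 0.309 (edgeR adjusted p = 0.00924, and 0.0570 without replicate 3 labelled WT). C2 shares 1843 of its 5536 exon bases with CFB on the same strand and was counted over 7 reference sequences, so that its value is uncertain. CFB itself had 0, 1 and 0 counts against 4, 6 and 4.

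CLU, or clusterin, which binds terminal complexes in the fluid phase, had 2909, 4007 and 4159 counts in the libraries labelled WT and 5405, 5395 and 5055 in those labelled PTC. It rose by 0.53 ± 0.115 on the log2 scale (edgeR adjusted p = 0.0412). This call was lost without any single library other than replicate 1 labelled WT, with adjusted p of 0.0619 to 0.152. VTN, or vitronectin, also a fluid-phase inhibitor of the terminal complex, was at 0.64 ± 0.254 (adjusted p = 0.234).

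The early and central genes beyond C2 did not pass the test. C1RL, a relative of C1R, differed by 0.04 (log2 fold change, edgeR adjusted p = 0.941). C5, from which the terminal pathway starts, had 374, 399 and 358 counts against 409, 341 and 333 and stood at -0.06 on the log2 scale (adjusted p = 0.843). C4A and C4B, near-identical copies whose reads cannot be separated with certainty, were at 0.37 and 0.12 (adjusted p of 0.591 and 0.825). FCN2, a lectin pathway ficolin, had 79, 43 and 46 counts against 36, 13 and 17, a log2 fold change of -1.35 ± 0.386 (adjusted p = 0.101). With the replicate block its adjusted p was 0.000263, and 3 of the 16 genes were then called (C2, CLU and FCN2), against 22.5% of all genes. Of the genes for C1q, C1QB and C1QC were at 0 counts in all libraries and C1QA had at most 1.

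Beside C5, the partners of C7 in the membrane attack complex are C6, the C8 chains and C9, and of their genes only C8G was tested. It had 6, 7 and 9 counts in the libraries labelled WT and 18, 18 and 10 in those labelled PTC, a log2 fold change of 1.06 ± 0.340 (edgeR adjusted p = 0.141). C6 had 3 counts in replicate 1 labelled PTC and none elsewhere, C9 at most 6 counts, C8B at most 1 and C8A none. Of the receptors, C1QBP, a mitochondrial protein that binds C1q in vitro, was the highest and stood at -0.07 on the log2 scale (adjusted p = 0.720), and C5AR1, C5AR2 and ITGB2 did not pass the test either. C3AR1, VSIG4 and CR1 had no counts, for which 3 counts per library is the limit that a count of 0 allows.

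**Figure D4:**
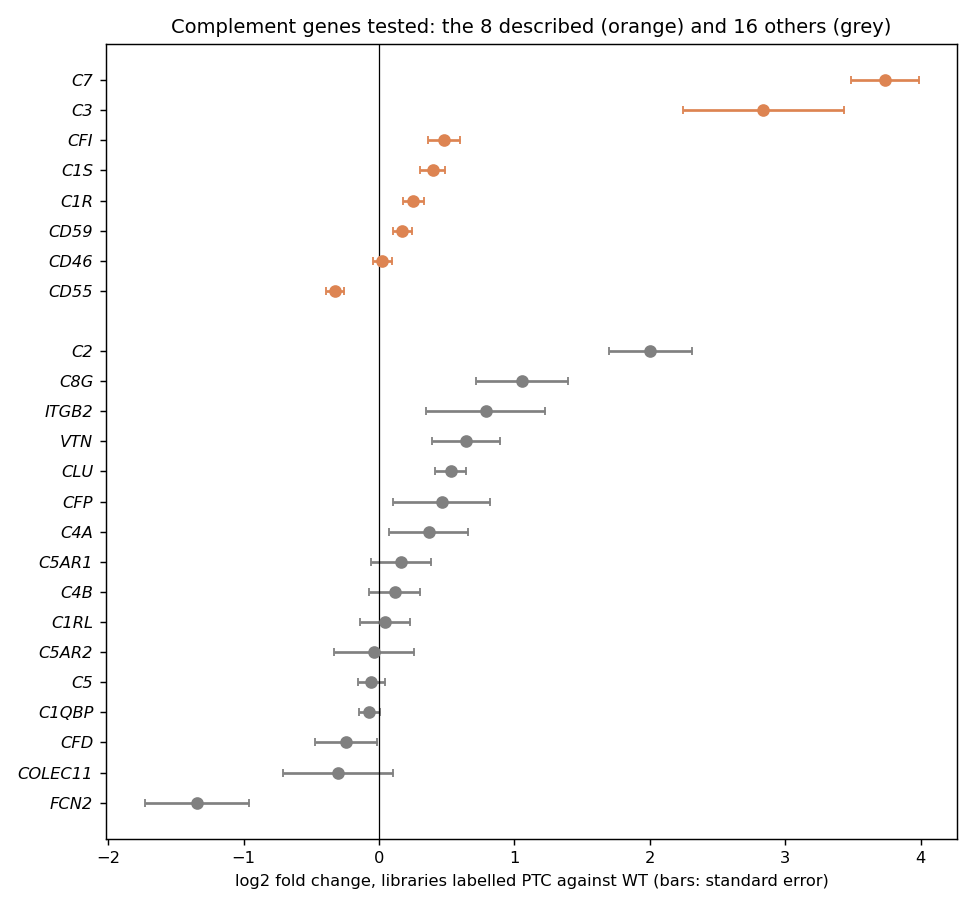
Log2 fold change, libraries labelled PTC against WT (horizontal axis), with bars of 1 standard error, for the 8 tested members (orange) and the 16 other complement genes tested (grey). C7 at 3.74 and C3 at 2.84 lie apart from the other members, which fall between -0.33 and 0.48, and among the other genes C2 lies highest at 2.00 and FCN2 lowest at -1.35.

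Position on the chromosome was not used to choose the members. Other members, such as C1S beside C1R and CD55 beside CD46, were passed over in taking the nearest 2 tested genes on each side of each member. This made 28 distinct genes, of which 1 was called, against 3.73% of all genes. Of the 28, 15 were higher and 13 lower, with a median log2 fold change of 0.0066. The called gene was LAMB3, a laminin chain 1863 kb from CD46 and 2293 kb from CD55 (log2 fold change 1.19, edgeR adjusted p = 0.0393), and its adjusted p was 0.0575 to 0.152 without replicate 1 or 3 labelled WT or without any 1 of the replicates labelled PTC. With the replicate block 7 of the 28 were called, against 22.5% of all genes. Beside C7, CARD6 was at 0.11, RPL37 at -0.25, OXCT1 at 0.06 and OXCT1-AS1 at -0.64 (edgeR adjusted p of 0.526, 0.444, 0.849 and 0.0771). OXCT1 and OXCT1-AS1 begin 821 and 961 kb from the start of C7. Within 1000 kb of C7, 8 genes were tested and edgeR called 0 of them, against 3.73% of all genes. An unadjusted p under 0.05 was found for 2, against 2886 of the 16710 genes over all. The replicate block called 3, against 22.5% of all genes. Of the 8, 2 were higher and 6 lower in the libraries labelled PTC. The groups did not overlap for 3, against 23.5% of all genes tested, and the median log2 fold change was -0.10. With so few genes nothing is read from these counts. Beside C3, CD70 was at -0.64, TNFSF9 at 0.58, GPR108 at 0.05 and TRIP10 at -0.20, and none of these passed the test (adjusted p of 0.561, 0.181, 0.834 and 0.284). With the replicate block TNFSF9 and TRIP10 beside C3 (edgeR adjusted p of 0.0463 and 0.0138) and RPL37 and OXCT1-AS1 beside C7 (0.000776 and 0.0117) were called.

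**Figure D5:**
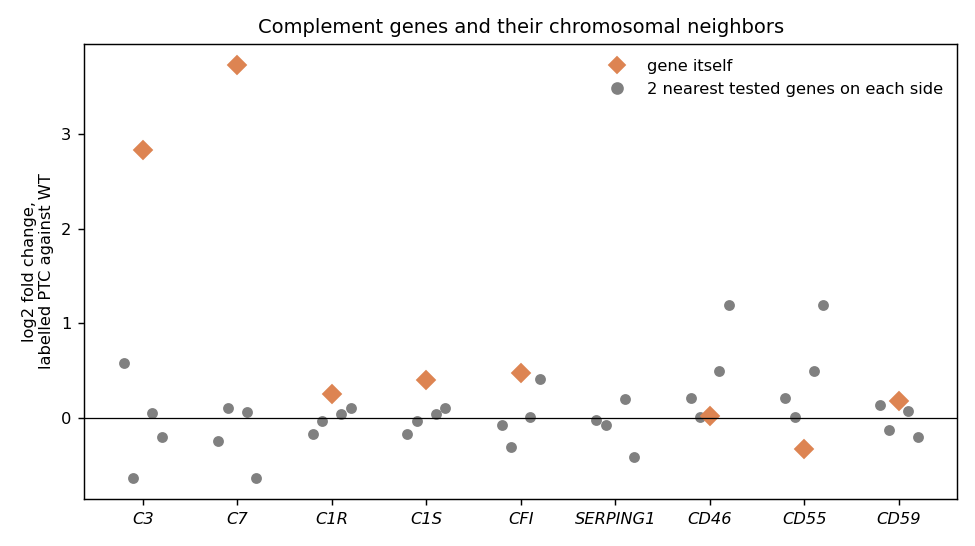
Log2 fold change, libraries labelled PTC against WT (vertical axis), of each complement gene (diamond) and of the nearest 2 tested genes on each side of it that are not members (grey circles, left to right by position). The neighbors of C3 and C7 lie between -0.64 and 0.58 while the genes themselves lie at 2.84 and 3.74, CD46 and CD55 share their neighbors, as do C1R and C1S, and SERPING1 has no fitted value.

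The genes whose pattern over the 6 libraries was most like that of C7 were found by the root mean square difference of log2 CPM, each gene centred on its own mean. They were S100A11, a calcium-binding protein (difference 0.186), PCYT1B, an enzyme of phosphatidylcholine synthesis (0.276), TSPAN11, a tetraspanin (0.303), XAF1 (0.380) and TGFBI, a matrix protein induced by TGF-beta (0.431). TSPAN11 had means of 1.58 ± 0.566 and 16.1 ± 2.51 CPM and TGFBI of 0.203 ± 0.0430 and 4.03 ± 0.754 CPM (SD, n = 3). S100A11, PCYT1B and XAF1 stayed at or under about 1 CPM on average in the libraries labelled PTC and were near 0 in those labelled WT. Their fitted log2 fold changes were 5.80, 5.84 and 4.95, with 3.36 for TSPAN11 and 4.28 for TGFBI, against 3.74 for C7. A small difference, taken with a prior count of 2, therefore does not mean an equal fold change. The nearest to C3 were TRIM13 (0.313), GBP4 (0.342), RP11-774D14.1 (0.343), SLC5A8 (0.346) and GGT5 (0.378). GBP4, an interferon-inducible GTPase, had means of 0.162 ± 0.0381 and 0.865 ± 0.238 CPM, and GGT5 of 0.312 ± 0.108 and 1.46 ± 0.103 CPM. Among the members, CD46 and CD59 were the closest pair (0.0970), followed by C1R and CD59 (0.0992) and C1R and C1S (0.137).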

How the data were processed

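RNA of 6 libraries was sequenced in paired reads. Per the labels and the study's methods, the authors aligned the reads to GRCh38 with STAR 2.4.0a and counted fragments under each gene name by featureCounts (Subread 1.5.0-p3 in the submitters' processing notes) on the strand of the gene, with the primary alignment of multiply mapped reads kept. The authors deposited raw counts for 57342 gene names, without normalization. That number and the library totals include 1 row that names no gene. The sources differ on whether the kit was for total or for messenger RNA. The comparison with the study's supplementary expression values used 627 readable genes, limited to those with high counts in every deposited library. Each of the 6 deposited columns matched a column that bore its run code under the opposite group name (SD of the log2 ratio at most 0.00302, next best at least 0.120).

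Counts were scaled by TMM, filtered with filterByExpr (16710 genes) and compared by the two-sided quasi-likelihood F-test of edgeR 4.0.16 (R 4.3.3) on a model of group alone, with Benjamini-Hochberg adjustment over all genes tested. Standard errors were taken from the log2 fold change and its F statistic. The study's methods name DESeq2, which was run as an alternative (DESeq2 1.42.0) beside the replicate block, relative log expression size factors, no filter, a minimum of 10 counts in every library and each library left out. The steps were tested on simulated data. Same-numbered replicates were taken as pairs, since the correlation across genes of their departures from their group's mean was 0.497, 0.307 and 0.228, against -0.352 to 0.150 for other pairs. FPKM used the deposited gene lengths, and likeness used log2 CPM with a prior count of 2, chromosome Y left out. Intervals for summed counts are exact at 95% and cover counting error only. RefSeq promoter windows were searched with Python 3.11.15.

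The members, the gene lists and the tests were chosen with earlier results of these data known. The genes named are the 9 members, PTCH1, other complement genes that were called or had the highest levels of their class, called neighbors among the nearest 2 on each side, the 5 genes most like C7 and C3, and cell type markers (adrenocortical, macrophage, hepatocyte, fibroblast and endothelial). CFB, C4A, C4B, C1QA, C1QB, C1QC, C6, C8A, C8B, C9, VTN, FCN2, the receptors other than C1QBP and the uncalled neighbors of C3 and C7 were added after their values were seen.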

Additional observations from a re-analysis of the deposited data

How the results depend on the processing

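The log2 fold changes of the 8 members tested moved by less than the spread between replicates (1 SD of log2 CPM within groups) in every alternative tried, except that C3 was left untested by a minimum of 10 counts per library, and only that of CD46 changed sign, between -0.0092 and 0.04, without being called. Leaving out 1 library at a time gave 3.51 to 3.95 for C7, 2.27 to 3.25 for C3 and 0.32 to 0.55 for CFI. The number of members called, which restates how they were picked, was 7 with the replicate block and 5 with DESeq2 or with no filter, against 3, and 1 to 3 with 1 library left out. C1S and CFI were the additional members with DESeq2 and with no filter, and C1R and CD59 joined them with the replicate block. Over all genes, 624 calls among 16710 tested became 3758 with the replicate block and 911 with DESeq2, among the same 16710. Dropping the filter gave 1111 calls among 30966 genes, and 9 members and 34 other complement genes were then tested. The minimum of 10 counts gave 479 calls among 15493 genes. Leaving out 1 library gave 219 to 810 calls, the lowest without replicate 3 labelled WT. Of the other complement genes, against 2, 3 were called with the replicate block, with DESeq2 or with no filter, 1 of the 3 as lower, 1 was called with at least 10 counts in every library, since C2 was then not tested, and 0 to 2 with 1 library left out. Of the neighbors, 7 were called with the replicate block, 2 with DESeq2 or with no filter, and 0 to 1 with 1 library left out. PTCH1 stayed lower in the libraries labelled PTC, at -0.91 to -0.67 with 1 library left out. The cause of these changes was not tested. C3 and SERPING1 rest on at most 21 counts in any library, so that their levels are limited by depth, and the names of the groups remain uncertain.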
